A study of Homo sapiens with 2 samples.

Results

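Named antisense RNA genes are genes whose symbol is that of another gene followed by -AS and an optional digit, such as DICER1-AS1. They were taken from the annotation of an Affymetrix Human Genome U133 Plus 2.0 array, which reads each transcript through a group of short probes called a probe set. The rule kept every probe set annotated to exactly 1 such symbol, which gave 1097 of 54613 non-control probe sets and 792 of 19775 genes. A further 23 probe sets named such a gene together with another gene and were not members. The sense gene in the name had a single-symbol probe set for 724 of the 792 antisense RNA genes, through 700 different sense genes, and it stands beside its antisense RNA for comparison only. The other 68 names pointed to a gene cluster, such as HOXA, or to a symbol without such a probe set here.

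The samples were 2 cultures of Seg-1 cells. One received FGF-AS siRNA, and the other received negative control siRNA. FGF-AS is made from the strand opposite to FGF2, a growth factor gene, and is annotated on this array as NUDT6, so it does not carry the -AS symbol and is no member of the group. Cells of both cultures had been reverse transfected with a lipid reagent at siRNA concentrations between 25 and 200 nM and were harvested after 72 hours. Seg-1 was long taken for an esophageal line and, per the labels, is the lung line H460, which they class as adenocarcinoma, an established cell line. Each group held 1 array and none came from untransfected cells, so nothing was replicated, the spread between cultures is unknown, and p-values are left out.

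An antisense RNA is transcribed from the strand opposite to another gene and may overlap that gene or start next to it. Many are long noncoding RNAs, made at low levels by RNA polymerase II from promoters that fire in both directions. Some are known to act on their sense neighbour, through chromatin, through RNA pairing or by the act of transcription, and for most no function is known. Labelled RNA was made here by oligo-dT priming and T7 transcription, which keeps the strand, so a probe set reports 1 strand. Which strand the probes of each set match was not checked, because probe sequences were not used here.

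Where an antisense RNA starts in relation to its sense gene is seen in the RefSeq promoter windows (assembly GRCh38.p14), which run from 250 bases before to 50 bases after an annotated start. Windows were found for 592 of the 792 antisense RNA genes. For 125 of them a window shared bases with a window of the sense gene on the opposite strand, for 387 the windows were on opposite strands and apart, for 1 (FAM131B-AS2) they were on the same strand, and for 79 no window of the sense gene was found. The 7 windows printed here are those of antisense RNAs whose start region is shared with the sense gene, where both genes passed the signal minimum given below and either differed at least 2-fold between the arrays. Capitals mark the bases that also lie in the sense gene's window, where they are read on the other strand. The KMT2E-AS1 window lies at chr7:105014092-105014391 (minus strand) and shares 163 bases with a window of KMT2E. The TMCO1-AS1 window lies at chr1:165768679-165768978 (plus strand) and shares 160 bases with a window of TMCO1. The ICA1-AS1 window lies at chr7:8261975-8262274 (plus strand) and shares 157 bases with a window of ICA1. The ZEB1-AS1 window lies at chr10:31319046-31319345 (minus strand) and shares 220 bases with a window of ZEB1. The SCAMP1-AS1 window lies at chr5:78360492-78360791 (minus strand) and shares 175 bases with a window of SCAMP1. The DICER1-AS1 window lies at chr14:95157438-95157737 (plus strand) and shares 258 bases with a window of DICER1. The PPP1R14B-AS1 window lies at chr11:64246804-64247103 (plus strand) and shares 210 bases with a window of PPP1R14B.
KMT2E-AS1: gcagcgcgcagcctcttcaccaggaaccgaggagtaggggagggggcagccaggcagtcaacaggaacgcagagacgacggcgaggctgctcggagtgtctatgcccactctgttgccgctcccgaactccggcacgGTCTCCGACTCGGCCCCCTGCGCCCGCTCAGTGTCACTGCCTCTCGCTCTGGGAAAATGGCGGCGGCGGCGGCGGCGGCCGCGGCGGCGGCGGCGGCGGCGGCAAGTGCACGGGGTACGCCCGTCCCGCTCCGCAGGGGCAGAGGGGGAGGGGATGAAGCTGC
TMCO1-AS1: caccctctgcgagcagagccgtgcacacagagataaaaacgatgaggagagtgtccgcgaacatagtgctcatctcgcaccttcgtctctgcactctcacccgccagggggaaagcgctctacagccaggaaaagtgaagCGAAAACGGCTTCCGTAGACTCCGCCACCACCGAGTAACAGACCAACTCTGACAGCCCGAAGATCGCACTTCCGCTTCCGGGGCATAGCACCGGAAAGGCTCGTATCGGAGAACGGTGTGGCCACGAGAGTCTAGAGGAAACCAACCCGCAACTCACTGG
ICA1-AS1: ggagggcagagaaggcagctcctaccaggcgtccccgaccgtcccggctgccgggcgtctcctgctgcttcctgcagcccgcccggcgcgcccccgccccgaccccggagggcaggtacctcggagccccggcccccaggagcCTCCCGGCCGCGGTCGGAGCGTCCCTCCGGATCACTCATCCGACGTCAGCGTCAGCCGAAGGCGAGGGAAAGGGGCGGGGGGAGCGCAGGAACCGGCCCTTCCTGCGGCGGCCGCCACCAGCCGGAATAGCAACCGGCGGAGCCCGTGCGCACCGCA
ZEB1-AS1: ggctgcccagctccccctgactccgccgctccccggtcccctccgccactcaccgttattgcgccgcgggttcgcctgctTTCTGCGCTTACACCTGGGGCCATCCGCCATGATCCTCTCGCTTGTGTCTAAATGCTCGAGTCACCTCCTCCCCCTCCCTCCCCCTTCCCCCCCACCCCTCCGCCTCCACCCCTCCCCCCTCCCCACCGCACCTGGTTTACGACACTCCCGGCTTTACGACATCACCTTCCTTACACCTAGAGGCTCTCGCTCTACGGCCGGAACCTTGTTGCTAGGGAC
SCAMP1-AS1: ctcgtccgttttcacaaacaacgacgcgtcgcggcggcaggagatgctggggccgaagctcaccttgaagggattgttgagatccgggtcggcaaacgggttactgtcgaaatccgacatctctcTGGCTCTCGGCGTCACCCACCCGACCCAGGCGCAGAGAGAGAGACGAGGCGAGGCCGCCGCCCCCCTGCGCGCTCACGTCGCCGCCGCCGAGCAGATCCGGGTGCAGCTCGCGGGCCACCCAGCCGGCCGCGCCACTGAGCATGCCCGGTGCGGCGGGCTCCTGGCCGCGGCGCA
DICER1-AS1: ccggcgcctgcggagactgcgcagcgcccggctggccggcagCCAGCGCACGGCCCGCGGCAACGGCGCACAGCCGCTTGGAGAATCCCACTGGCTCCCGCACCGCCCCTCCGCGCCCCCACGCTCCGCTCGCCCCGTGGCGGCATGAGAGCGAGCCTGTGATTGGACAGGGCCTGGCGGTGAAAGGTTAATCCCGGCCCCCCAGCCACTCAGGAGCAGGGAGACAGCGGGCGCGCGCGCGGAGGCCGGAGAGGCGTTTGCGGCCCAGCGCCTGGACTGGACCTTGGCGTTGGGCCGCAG
PPP1R14B-AS1: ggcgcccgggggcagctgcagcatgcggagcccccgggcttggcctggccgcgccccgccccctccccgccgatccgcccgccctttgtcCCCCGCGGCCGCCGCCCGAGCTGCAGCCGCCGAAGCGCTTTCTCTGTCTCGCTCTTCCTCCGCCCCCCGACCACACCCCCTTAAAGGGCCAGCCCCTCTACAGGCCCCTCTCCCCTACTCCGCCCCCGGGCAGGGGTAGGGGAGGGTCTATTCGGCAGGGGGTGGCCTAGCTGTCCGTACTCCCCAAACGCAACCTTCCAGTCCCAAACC

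These windows were rich in G and C, with between 57.7% (TMCO1-AS1) and 76% (ICA1-AS1) of bases G or C. Their CG dinucleotides numbered from 21 in ZEB1-AS1 to 41 in SCAMP1-AS1, against a median of 14 over the first listed windows of 27305 genes. The 125 antisense RNA genes with a shared window had medians of 67% G or C and 28 CG dinucleotides on their first listed windows. For the 387 with windows apart these medians were 55% and 9. Counted on the first listed window, the 197 antisense RNA genes that gave a measured signal had a median of 23 CG dinucleotides, and the 395 that did not had 10. The sense partners had 24. The TATA motif TATAAA, on either strand, was present in 4.57% of the windows of measured antisense RNA genes, in 11.1% of those not measured and in 12.0% of all genes. The ETS-type motif CCGGAAG, on either strand, was present in 12.2% of the measured, 6.84% of those not measured and 10.7% of all. The CCAAT motif, on either strand, was found in 31.5% of the measured, 33.9% of those not measured and 35.7% of all. A match describes letters in a window and not a bound site, and these counts were not tested.

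Most named antisense RNAs gave little signal. A gene was represented by its brightest probe set, and it counted as measured when the mean of both arrays reached 23.85, the median over probe sets. Of the 792 antisense RNA genes 249 (31.4%) passed, against 12352 (62.5%) of all 19775 genes and 493 (70.4%) of the 700 sense partners. Among the 543 that did not pass, the median signal was 8.3 and 211 lay under 6.1, the value at the 25th percentile of all signals. The median signal of the 249 was 46.15, and that of all measured genes was 245.15; signals of different probe sets also depend on their probes. At a stricter minimum of 145.15, the 75th percentile, 33 antisense RNA genes remained. Detection calls were not used here, so a low signal cannot be told apart from background.

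**Figure D1:**
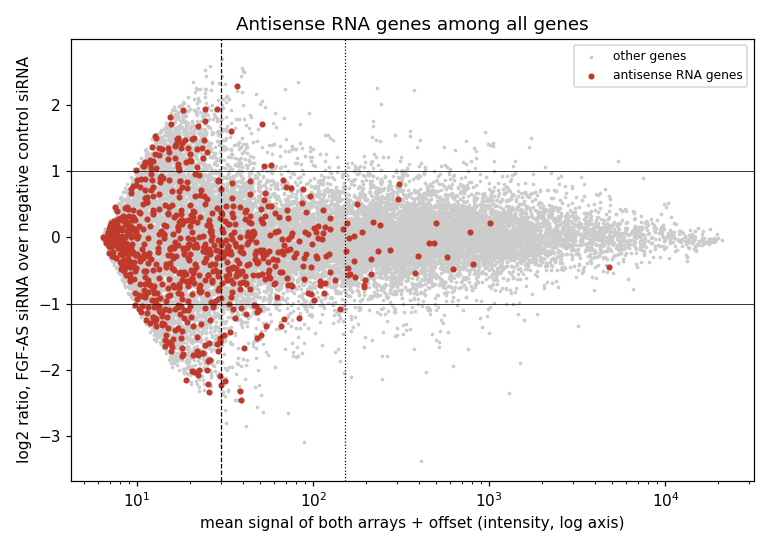
Log2 ratio of FGF-AS siRNA over negative control siRNA (y axis) against the mean signal of both arrays plus the offset of 6.1 (x axis, intensity on a log scale), with 1 point per gene, antisense RNA genes in red and all other genes in grey. The dashed line is the signal minimum and the dotted line the stricter minimum, with horizontal lines at 2-fold. Most of the 792 antisense RNA genes lie left of the dashed line, and none of the 33 right of the dotted line reaches 2-fold.

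Ratios were taken as log2(FGF-AS siRNA signal + 6.1) minus log2(negative control siRNA signal + 6.1), which understates the change of dim genes. The measured antisense RNAs as a list were lower with FGF-AS siRNA. Their median log2 ratio was -0.24, with 166 of 249 (66.7%) below 0, while the median over all measured genes was -0.02 with 51.8% below 0, and that of the sense partners was -0.02 with 51.5% below 0. The antisense median stayed below 0 under every scaling and offset tried, from -0.26 to -0.09, whereas the median over all measured genes changed sign with the scaling and that of the sense partners did so too. At signals between the minimum and the stricter minimum the median was -0.24 over 216 antisense RNA genes and -0.04 over 4417 other genes. Counted by probe set in that range, it was -0.12 over all 13652 probe sets and -0.11 over the 2209 without a gene symbol. Among the 33 brighter antisense RNA genes the median was -0.20, against -0.00 for 7686 other genes. What part signal level or probe set class plays in the lower median was not tested.

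Other noncoding classes lay on the same side. Divergent transcripts, which carry a -DT symbol and start back to back with a neighbour, had 51 of 74 measured genes (68.9%) below 0 and a median of -0.26. Intergenic noncoding RNAs, which carry a LINC symbol, had 93 of 149 (62.4%) below 0 and a median of -0.16. The 5 measured intronic transcripts with an -IT symbol were all below 0, with a median of -0.60, and the 2 measured overlapping transcripts with an -OT symbol lay on either side of 0. A negative median was thus also seen in other noncoding classes of these arrays, and the differences between the classes were not tested.

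The brightest antisense RNAs differed little between the arrays. EPB41L4A-AS1, the host gene of a small nucleolar RNA, read 4045.9 with FGF-AS siRNA and 5520.7 with negative control siRNA, a log2 ratio of -0.45, and its other probe set gave -0.73. OIP5-AS1, the conserved noncoding RNA also called Cyrano, which carries a binding site for the microRNA miR-7, read 1084.2 with FGF-AS siRNA and 935.1 with negative control siRNA. Its log2 ratio was 0.21 and its other probe sets gave 0.15 and 0.48, so all 3 were higher. These were the 2 brightest of the 249 antisense RNA genes.

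Of the next 8 by signal, 6 read lower and 2 read higher with FGF-AS siRNA. ZNF232-AS1, antisense to a zinc finger gene, read 691 with FGF-AS siRNA and 912.9 with negative control siRNA. PRRT3-AS1 read 512.7 with FGF-AS siRNA and 715 with negative control siRNA, at -0.48 the lowest ratio of the 10 brightest. MAPKAPK5-AS1, antisense to a stress kinase gene, read 508.5 with FGF-AS siRNA and 628.4 with negative control siRNA, and its 3 probe sets ran from -0.30 to 0.06. PITPNA-AS1 (-0.27), DPP10-AS1 (-0.09) and WAC-AS1 (-0.09) were also on the lower side, and FGD5-AS1 (0.22) and PRR34-AS1 (0.08) on the higher. On the brightest probe sets all 10 log2 ratios were smaller in size than 0.49. That is the SD of a probe set's log2 ratio, taken from the disagreement between probe sets of the same gene over 6155 genes. Over the 3050 genes with such probe sets at the stricter minimum, where all 10 lay, this SD was 0.36. The ratios of PRRT3-AS1, EPB41L4A-AS1 and ZNF232-AS1 (-0.40) were larger in size than that, and those of the others were not.

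**Figure D2:**
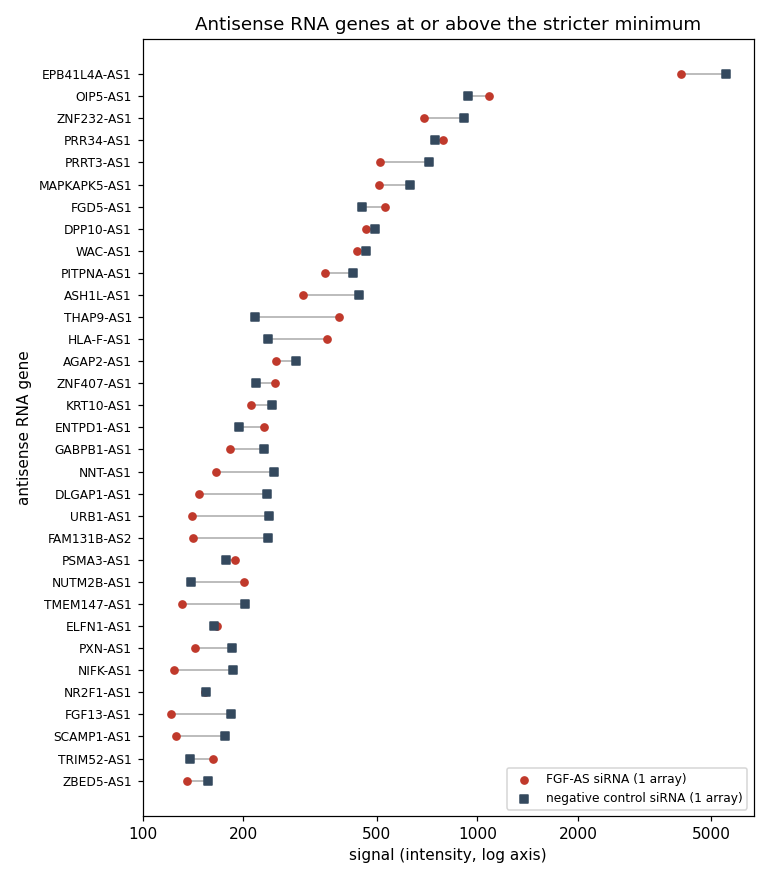
Signals (x axis, intensity on a log scale) of the 33 antisense RNA genes at or above the stricter minimum, with FGF-AS siRNA as red circles and negative control siRNA as dark squares, 1 array each. In 22 of the 33 the FGF-AS siRNA signal is the lower one, and no gene is 2-fold apart.

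Among these 33 genes, 4 were at least 1.5-fold lower and 1 was at least 1.5-fold higher, against 5.75% of all 7719 genes at this minimum in each direction. At 2-fold none of the 33 passed, and of the 7719 genes 0.985% were higher and 1.11% lower. URB1-AS1, antisense to a ribosome biogenesis gene, read 140 with FGF-AS siRNA and 239 with negative control siRNA (log2 ratio -0.75). FAM131B-AS2 stood at -0.71, DLGAP1-AS1 at -0.65 and TMEM147-AS1 at -0.60, and the dimmer probe set of TMEM147-AS1 gave -0.59. THAP9-AS1, whose name pairs it with a gene derived from a transposase, read 385.6 with FGF-AS siRNA and 217.1 with negative control siRNA, a log2 ratio of 0.81. HLA-F-AS1, in the major histocompatibility complex, is named here after its values were seen, as the next highest at 0.57 (354.4 with FGF-AS siRNA and 236.3 with negative control siRNA). Each of these except TMEM147-AS1 rested on 1 measured probe set, which for URB1-AS1, FAM131B-AS2 and THAP9-AS1 ended in _s_at or _x_at.

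Past 2-fold there were 5 antisense RNAs that were higher and 22 that were lower, all of them under the stricter minimum. After quantile normalization 7 were higher and 14 lower. Of all 12352 measured genes, 2.05% passed this size upward and 2.72% downward, and among the 4633 measured genes under the stricter minimum the shares were 3.82% and 5.4%. The antisense shares were 2.01% and 8.84% of the 249 measured, and 2.31% and 10.2% of the 216 under the stricter minimum. Counted by measured probe set under the stricter minimum, 2.70% of the antisense probe sets were higher and 10.4% lower. Of all probe sets in that range, 2.97% were higher and 8.28% lower. Of the 22 lower, 13 had an FGF-AS siRNA signal below the minimum, and of the 5 higher, 3 had a negative control siRNA signal below it. Such genes passed the minimum only through the array where they were brighter, so a difference was built into their selection. With both arrays required at or above the minimum, 9 antisense RNAs were lower and 2 higher of 203, while 1.63% of all 11551 such genes were lower and 1.15% higher. With no minimum, 108 of 792 were lower and 58 higher, beside 6.42% and 5.43% of all genes. For 16 of the 27 the array held 1 probe set, and 6 of the 27 were called on a probe set ending in _s_at or _x_at, which may match more than 1 transcript. These 6 were BABAM2-AS1, FUT8-AS1, IGF2BP2-AS1, MATN1-AS1, ZNF503-AS2 and ZSCAN16-AS1.

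**Figure D3:**
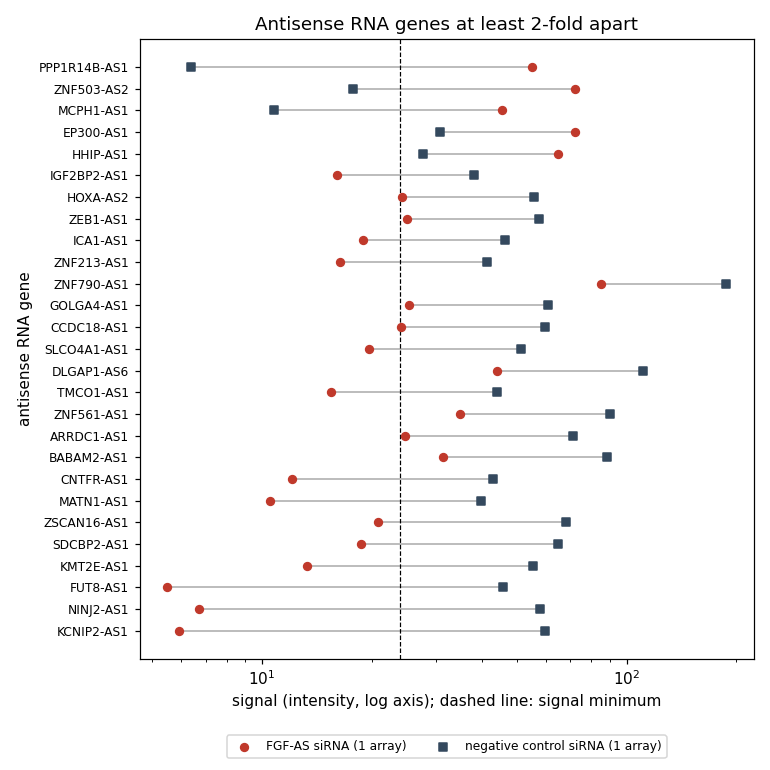
Signals (x axis, intensity on a log scale) of the 27 antisense RNA genes at least 2-fold apart, with FGF-AS siRNA as red circles and negative control siRNA as dark squares, 1 array each, and the signal minimum of 23.85 as a dashed line. In 16 of them the lower signal lies left of the line, as for PPP1R14B-AS1 (55.1 with FGF-AS siRNA and 6.4 with negative control siRNA).

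The highest ratio belonged to PPP1R14B-AS1, antisense to an inhibitor of protein phosphatase 1, whose shared start region is printed above. It read 55.1 with FGF-AS siRNA and 6.4 with negative control siRNA, a log2 ratio of 2.29. ZNF503-AS2 came next on its brightest probe set, with 72 against 17.7 (1.71), but its other measured probe sets gave -2.28 and -0.60, so no direction can be given for that gene. MCPH1-AS1, antisense to the microcephalin gene, read 45.6 with FGF-AS siRNA and 10.8 with negative control siRNA (1.61). EP300-AS1, antisense to a histone acetyltransferase gene, read 72.4 and 30.8 in that order (1.09), and HHIP-AS1, antisense to a gene for an inhibitor of hedgehog ligands, 64.8 and 27.6 (1.07). EP300-AS1 and HHIP-AS1 were the 2 with both arrays above the minimum.

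The lowest ratios came from signals near the bottom of the range, close to the offset with FGF-AS siRNA, so their size depends on that offset. KCNIP2-AS1, antisense to a potassium channel subunit gene, read 5.9 with FGF-AS siRNA and 59.8 with negative control siRNA (log2 ratio -2.46). NINJ2-AS1, antisense to a cell adhesion gene, read 6.7 with FGF-AS siRNA and 58 with negative control siRNA (-2.32), and its other measured probe set was lower as well, with 13.7 against 40.1 (-1.22). FUT8-AS1, antisense to a fucosyltransferase gene, read 5.5 with FGF-AS siRNA and 45.8 with negative control siRNA (-2.16), and its other probe set, just under the minimum, gave -0.94. NINJ2-AS1 was thus the only gene among the 27 with at least 2 measured probe sets that all passed 2-fold. KMT2E-AS1, antisense to a SET domain chromatin gene, read 13.3 against 55.5 (-1.67), and SDCBP2-AS1, antisense to the syntenin-2 gene, read 18.7 against 64.8 (-1.52).

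The 9 lower antisense RNAs that stayed above the minimum on both arrays were led by BABAM2-AS1, whose sense gene encodes a subunit of a BRCA1 complex, with 31.3 in FGF-AS siRNA cells and 88.6 in negative control siRNA cells (-1.34). ARRDC1-AS1, antisense to an arrestin-domain gene, read 24.7 with FGF-AS siRNA and 71.4 with negative control siRNA (-1.33). ZNF561-AS1 (-1.23), DLGAP1-AS6 (-1.22), CCDC18-AS1 (-1.13), GOLGA4-AS1 (-1.09), ZNF790-AS1 (-1.08), ZEB1-AS1 (-1.03) and HOXA-AS2 (-1.03) completed them. ZNF790-AS1 was the brightest of all 27, with 85 against 186.9, while its other probe set, under the minimum, gave 0.03. ZEB1-AS1, antisense to a transcription factor gene of the epithelial to mesenchymal transition, read 25 with FGF-AS siRNA and 57.4 with negative control siRNA. CCDC18-AS1 and HOXA-AS2 each had a second measured probe set on the other side of 0, at 0.52 and 1.40.

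The rest of the 22 were dim in FGF-AS siRNA cells, at 10.5 to 20.8. They were ZSCAN16-AS1 and MATN1-AS1 (both -1.47), CNTFR-AS1 (-1.43), TMCO1-AS1 (-1.22), SLCO4A1-AS1 (-1.15), ZNF213-AS1 (-1.08), ICA1-AS1 (-1.07) and IGF2BP2-AS1, which read 16 with FGF-AS siRNA and 38.2 with negative control siRNA on an _s_at probe set. Without such probe sets IGF2BP2-AS1 turned to 0.22, on a probe set under the minimum. The other probe set of MATN1-AS1, also under the minimum, read 16.9 on both arrays, and those of ZSCAN16-AS1 gave -0.15 and -0.60. Between 1.5-fold and 2-fold, 36 further antisense RNAs were lower and 11 were higher. Together with those past 2-fold, 58 of 249 were at least 1.5-fold lower and 16 at least 1.5-fold higher, beside 9.52% and 7.96% of all measured genes. The lower included PITX1-AS1 (-0.95), HOXA11-AS (-0.91), TSKU-AS1 (-0.90), ST20-AS1 (-0.86), MAGI2-AS3 (-0.85, with a second measured probe set at -0.01), GAS6-AS1 (-0.78) and GNAS-AS1 (-0.70), the last from an imprinted locus. The higher included ATP11A-AS1 (0.87), KIF9-AS1 (0.85), GLYCTK-AS1 (0.82), MYRF-AS1 (0.76) and ATP8B1-AS1 (0.75).

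Agreement between probe sets of the same antisense RNA is the only internal check that these arrays allow. Of the 249 measured genes, 41 had at least 2 measured probe sets, and in 24 of them all probe sets lay on the same side of 0: 18 below and 6 above. The other 17 were mixed. Of all 297 measured antisense probe sets 66.0% lay below 0, so unrelated probe sets would often share a sign. The same count over all genes was not taken, so 24 of 41 cannot be read as agreement beyond that. Within the 41 genes the SD of a probe set's log2 ratio was 0.65 (1.57-fold). It was 0.58 for all genes under the stricter minimum and 0.36 (1.28-fold) for those above it. Ratios of about 1 on the log2 scale in dim antisense RNAs are thus less than 2 of these SDs from 0. These SDs cover differences within the 2 arrays and not between cultures.

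**Figure D4:**
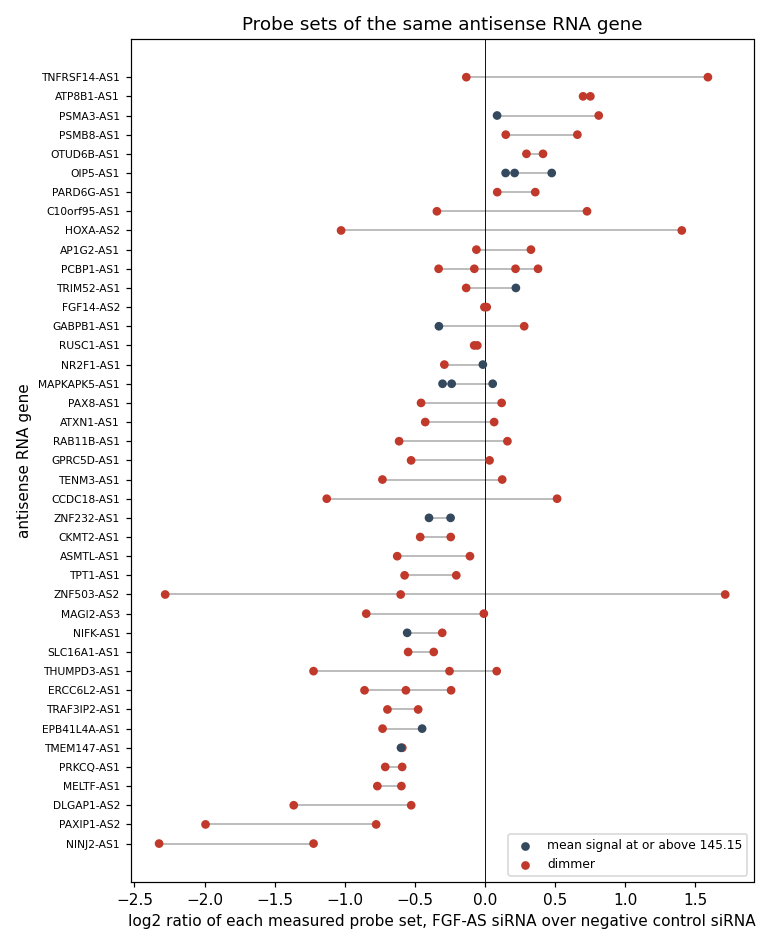
Log2 ratio of FGF-AS siRNA over negative control siRNA (x axis) for each measured probe set of the 41 antisense RNA genes that had at least 2, with genes ordered by their mean ratio and those reaching the stricter minimum in dark blue. The grey line joins the probe sets of a gene, and it crosses 0 in 17 genes, most widely in ZNF503-AS2.

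Among genes whose probe sets lay on the same side of 0, PAXIP1-AS2 gave -0.78 and -1.99, DLGAP1-AS2 -0.53 and -1.36, MELTF-AS1 -0.60 and -0.77, and PRKCQ-AS1 -0.71 and -0.59. ERCC6L2-AS1 was lower on all 3 of its measured probe sets, from -0.86 to -0.24. ATP8B1-AS1, antisense to a phospholipid flippase gene, was higher on both, with 87.4 against 49.4 (0.75) and 42 against 23.5 (0.70). OTUD6B-AS1 was higher on both as well, at 0.30 and 0.41. The widest disagreements, apart from ZNF503-AS2 and HOXA-AS2, were those of TNFRSF14-AS1, at -0.13 and 1.59, CCDC18-AS1, and THUMPD3-AS1, at -1.22 to 0.08. PCBP1-AS1 had 4 measured probe sets, from -0.33 to 0.38.

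The antisense RNAs of FGF genes other than FGF2 were looked at because the siRNA was aimed at an FGF antisense transcript. FGF13-AS1 read 121.9 with FGF-AS siRNA and 183.3 with negative control siRNA (-0.57), while FGF13, which encodes an intracellular FGF family member, read 3559.2 and 3920.5 in that order (-0.14). FGF14-AS2 hardly differed, with 38.5 against 38.1 (0.01) and a second probe set at -0.00. FGF10-AS1 was under the minimum at 2.4 and 1.8. The targeted NUDT6 itself read 104.5 with FGF-AS siRNA and 376.9 with negative control siRNA (-1.79), and its partner FGF2 read 911.8 and 676.2 (0.43) on its brightest probe set. The second probe set of NUDT6 gave -1.70, while that of FGF2 hardly differed, with 338.8 against 326.7 (0.05). EMX2OS, named for the strand opposite to EMX2, gave 0.38 at dim signals.

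Several antisense RNAs known from other settings gave no measured signal in these cells, and they were picked for their background and not by the naming rule. CDKN2B-AS1, the antisense RNA of the INK4 locus also called ANRIL, read 0.8 with FGF-AS siRNA and 1.1 with negative control siRNA. WT1-AS read 6.8 and 7.5 in that order, DLX6-AS1 2.8 and 4.6, and NKX2-1-AS1, whose sense gene marks lung adenocarcinoma, 1.2 and 3.5. All of these lay near or below the offset, so no fold is given.

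In 198 pairs both the antisense RNA and its sense gene were measured. Both were lower in 60 pairs and both higher in 27, so that 87 pairs (43.9%) had the same sign. The antisense RNA was lower and the sense gene higher in 73, and the reverse held in 38. Across these pairs Pearson's r was 0.01 and Spearman's rho was -0.05, a description over 198 pairs that share both arrays. The share of antisense RNAs below 0 in these pairs was 67.2% and that of sense genes 49.5%.

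**Figure D5:**
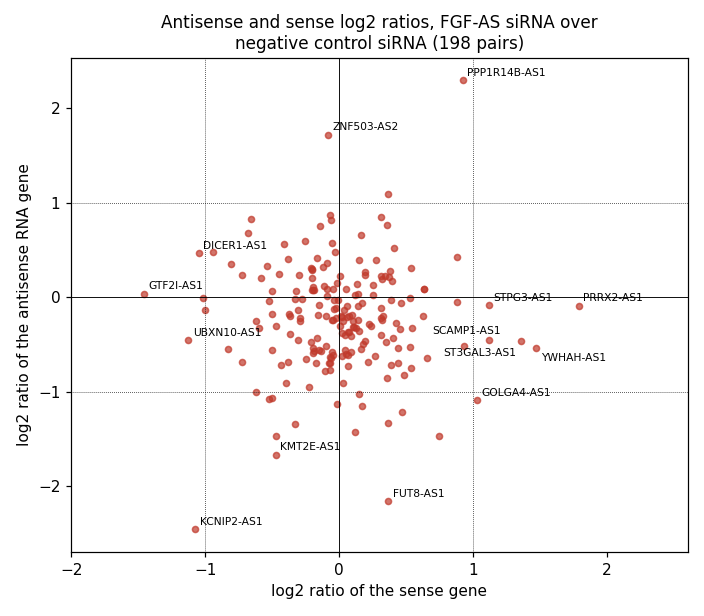
Log2 ratio of the antisense RNA gene (y axis) against that of the sense gene in its name (x axis), FGF-AS siRNA over negative control siRNA, with 1 point for each of 198 pairs and dotted lines at 2-fold. The points form no slope (r = 0.01), and KCNIP2-AS1 and GOLGA4-AS1 are the 2 pairs with both genes past 2-fold.

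The pairs were also split by whether they share a start region. Where the promoter windows shared bases, 18 of 50 measured pairs (36%) had the same sign, and where the windows lay apart on opposite strands, 41 of 90 (45.6%) did. The median antisense log2 ratio was -0.20 over 57 measured genes with a shared window and -0.24 over 117 with windows apart. The difference between these shares was not tested.

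Of the 19 pairs in which the antisense RNA passed 2-fold, the sense gene stayed within 1.5-fold in 14. Most genes did so anyway: 81.3% of all measured sense partners and 82.5% of all measured genes were within 1.5-fold. KMT2E read 346.9 with FGF-AS siRNA and 483.9 with negative control siRNA (-0.47) on its brightest probe set beside the lower KMT2E-AS1, while its other probe sets gave 0.53 and 0.29. ZEB1 gave 0.15, with its 4 measured probe sets from -0.57 to 0.15, beside the lower ZEB1-AS1. TMCO1, an endoplasmic reticulum calcium channel gene, gave 0.47 with probe sets from -0.84 to 0.47, beside the lower TMCO1-AS1. EP300 gave 0.37 on both its probe sets beside the higher EP300-AS1. The probe sets of KMT2E, ZEB1 and TMCO1 thus lay on both sides of 0, while those of EP300 were close to each other.

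The pairs with both genes past 1.5-fold were 9, of which 4 lay on the same side of 0 and 5 on opposite sides. On the same side, PPP1R14B read 1652.5 with FGF-AS siRNA and 869.8 with negative control siRNA (0.92) beside PPP1R14B-AS1 at 2.29. KCNIP2 was dim at 14.8 against 37.9 (-1.07) beside KCNIP2-AS1 at -2.46, IGF2BP2, an RNA-binding protein gene, stood at -0.62 beside IGF2BP2-AS1, whose lower reading rests on the _s_at probe set alone, and BRWD1 at -0.73 beside BRWD1-AS2 at -0.69. The 7 measured probe sets of BRWD1 lay on both sides of 0, up to 0.28. The antisense RNAs of these 4 same-side pairs were all under the minimum on 1 array. PPP1R14B-AS1 read 6.4 with negative control siRNA, and with FGF-AS siRNA KCNIP2-AS1 read 5.9, IGF2BP2-AS1 16 and BRWD1-AS2 23.5. KCNIP2 was under the minimum with FGF-AS siRNA too, so for that pair both differences were built into the selection. On opposite sides, GOLGA4, a golgin gene, read 800.5 with FGF-AS siRNA and 388.8 with negative control siRNA (1.03) beside GOLGA4-AS1 at -1.09. The dim second probe set of GOLGA4 gave -0.41. ZSCAN16 (0.75) and MORC2 (0.65) were higher beside lower antisense RNAs (-1.47 and -0.64), and ADARB2 (-0.68) and GLYCTK (-0.66) were lower beside higher ones (0.68 and 0.82). Here ZSCAN16-AS1 (20.8 with FGF-AS siRNA) and GLYCTK-AS1 (18.8 with negative control siRNA) were under the minimum on 1 array.

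Counting the sense genes themselves, of the 493 measured 9 passed 2-fold upward and 16 downward, or 1.83% and 3.25%, beside the 2.05% and 2.72% of all measured genes. DICER1, whose nuclease processes microRNA precursors, read 647.9 with FGF-AS siRNA and 1347.5 with negative control siRNA (-1.05), and all 3 of its measured probe sets were lower. DICER1-AS1, which shares 258 bases of its window with DICER1, was dim and not lower, with 38.7 against 26.4 (0.46). GTF2I, a general transcription factor gene with close copies in the genome, read 246.1 with FGF-AS siRNA and 688 with negative control siRNA (-1.46), beside GTF2I-AS1 at 0.03. SCAMP1, a secretory carrier membrane protein gene, read 1176.7 and 456.3 in that order (1.35), with 6 probe sets from 0.07 to 1.35, beside SCAMP1-AS1 at -0.47. YWHAH, which encodes the 14-3-3 eta adaptor, read 584.5 and 207.2 (1.47) beside YWHAH-AS1 at -0.53. In these 4 pairs the sense gene was past 2-fold and the antisense RNA within 1.5-fold, with opposite signs. All 4 antisense ratios were smaller in size than 0.65, the SD within antisense RNA genes given above. That of GTF2I-AS1 was too close to 0 to give a direction. GTF2I and YWHAH each rested on 1 measured probe set. PRRX2 (1.79, antisense RNA -0.09), STPG3 (1.12 and -0.08) and ST3GAL3 (1.12 and -0.45) also had opposite signs, with PRRX2-AS1 and STPG3-AS1 close to 0. UBXN10 (-1.13 and -0.46), BBOX1 (-1.02 and -0.01) and TNFRSF14 (19 against 44.2, antisense RNA -0.13) had the same sign, with BBOX1-AS1 close to 0. The other measured probe set of TNFRSF14-AS1, of nearly the same signal, gave 1.59, so no direction can be given for it. Of these further sense genes, all but ST3GAL3 were under the minimum on 1 array, and its probe sets ran from -0.75 to 1.12.

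For 13 of these 25 sense genes the antisense RNA was under the signal minimum, and the 4 named here were chosen after their values were seen. ACTA2, smooth muscle actin, read 351.3 with FGF-AS siRNA and 1141.3 with negative control siRNA (-1.68), beside ACTA2-AS1 at 20.9 and 19.7. SOX9, a transcription factor gene, read 90.1 and 198.1 in that order (-1.09), beside SOX9-AS1 at 8.6 and 0.9. LAMA5, a laminin chain gene, read 1164.4 and 504.9 (1.20) on its 1 measured probe set, an _s_at one, beside LAMA5-AS1 at 2.7 and 4.2. A probe set annotated to both of these genes, left out by the rule, went the other way. It read 52.8 with FGF-AS siRNA and 94.2 with negative control siRNA. TRPM2, a cation channel gene, read 130.4 and 58.1 (1.09), beside TRPM2-AS at 2.2 and 27.7. No ratio is read from these 4 antisense RNAs, whose single-symbol probe sets had mean signals under the minimum.

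The cells were set against markers of their labelled type, lung adenocarcinoma. Of 7 such genes 6 were measured, and the bright ones, KRT8 and KRT18, are keratins of simple epithelia in general. The more lung-specific NAPSA and SFTPB were dim, and NKX2-1 was under the minimum, so the markers that are more specific to that type were dim or under the minimum. The sum over this list was 13559.7 with FGF-AS siRNA and 14035.9 with negative control siRNA. Marker lists of squamous (0 of 2 measured), intestinal (2 of 3), fibroblast (2 of 4), leukocyte (2 of 3) and endothelial cells (1 of 3) summed to between 10.5 and 206.7 with FGF-AS siRNA and between 12.7 and 221.3 with negative control siRNA. Their part in the antisense ratios was not tested.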

How the data were processed

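The authors deposited 1 linear intensity per probe set for each of 2 arrays. GCOS and MAS5 are listed, with no version, per the submitters' processing notes, and no source used here gives how the arrays were scaled to each other. The median signal was 23.1 with FGF-AS siRNA and 25.5 with negative control siRNA, and no counting error exists for a signal; the number of arrays limits precision. Symbols came from GEO's platform annotation and were looked up by gene identifier in RefSeq, which held 1090 of the 1097 member probe sets and changed no symbol. The offset of 6.1, the minimum of 23.85 and the 2-fold size were applied to all genes with Python 3.11.15 and pandas 2.3.3. The calculation was tested on simulated data with changes set well above 2-fold. Such a test checks the calculation and not how reliable a 2-fold call is in dim genes. Members, lists and the naming rule (antisense RNAs past 1.5-fold, the 10 brightest, those with several measured probe sets, pairs with either gene past 2-fold, NUDT6 and FGF2) were chosen with earlier results of these data known. Promoter windows come from RefSeq (GRCh38.p14).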

Additional observations from a re-analysis of the deposited data

How the results depend on the processing

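With an offset at the median signal, 2 antisense RNAs were at least 2-fold higher and 7 lower, and 4 sense genes higher and 8 lower. Quantile normalization gave 14 lower antisense RNAs and 10 lower sense genes. At the stricter minimum no antisense RNA passed (0 higher, 0 lower), 5 sense genes were higher and 5 lower, and 6 of 19 pairs had the same sign. With no minimum the counts were 58 higher and 108 lower antisense RNAs, 27 and 43 sense genes, and 356 of 724 pairs. With both arrays at or above the minimum they were 2 and 9 antisense RNAs and 7 lower sense genes. At the stricter minimum fewer genes were counted, and the shares were smaller too. Of all genes there 0.985% were higher and 1.11% lower, against 2.05% and 2.72% of all measured genes. The cause of the differences between settings was not tested. With the mean over probe sets the log2 ratios of HOXA-AS2 (0.19), ST3GAL3 (-0.063) and ZNF503-AS2 (-0.39) changed sign, as did GOLGA4 (-0.41), IGF2BP2-AS1 (0.22) and ZNF503-AS2 (-2.28) once _s_at and _x_at probe sets were left out. The median of all measured genes ran from -0.06 to 0.06. No paired analysis was possible because each group holds 1 array, and none could be left out.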
